A study of Mus musculus with 4 samples.

Results

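Meg3, Rian and Mirg are 3 long noncoding RNA genes that lie one after another on mouse chromosome 12, and their level, their share of nuclei with a count and their detection in the same nuclei were followed across the liver's cell lineages, hepatocyte zones and ages. They were picked by symbol, 3 of the 32285 genes in the count matrices, and they had been noticed in these data for their level around the central vein, so their levels by lineage and zone are given as descriptions with no test. Nuclei came from livers of male wild type mice of the inbred strain C57BL6/J. Aged mice were 30 months old and young mice 2 months old, with 2 libraries of each age, and no group carried a further allele or agent. The tissue was cryopreserved before nuclei were isolated, and RNA molecules were counted with unique molecular identifiers (UMIs). The labels name the libraries replicates and do not say whether each came from its own mouse, so the p-values below speak of the spread between libraries, part of which could be technical.

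The 3 genes belong to the imprinted Dlk1-Dio3 domain. In this domain the noncoding RNAs are transcribed from the maternally inherited chromosome, while Dlk1, Rtl1 and Dio3, which code for proteins, are expressed mainly from the paternal one. Meg3 is a nuclear long noncoding RNA reported to bind chromatin-modifying complexes. Rian is the host of a C/D box small nucleolar RNA cluster, and Mirg is the host of a large microRNA cluster. In mouse liver, genes of this domain have been reported among those that respond to beta-catenin, the effector of Wnt signals from the central vein. Hepatocytes beside that vein form a thin rim that makes glutamine synthetase, the product of Glul.

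In GRCm38 coordinates from GENCODE vM21, Meg3 (ENSMUSG00000021268) spans chr12:109541001-109571726, Rian (ENSMUSG00000097451) chr12:109603940-109661716 and Mirg (ENSMUSG00000097391) chr12:109729764-109749460, all on the plus strand. From the start of Meg3 to the end of Mirg the stretch measures 208460 bases. The gap between Meg3 and Rian is 32213 bases and the gap between Rian and Mirg 68047 bases, and the noncoding gene B830012L14Rik lies within the second gap at chr12:109695586-109702587. The deposited counts come from the 3′ ends of transcripts and do not measure the microRNAs cut from them. Within the gene bounds, RefSeq (GRCm38.p6) places 3 mature microRNAs in Meg3, 6 in Rian and 26 in Mirg, the last from 14 hairpins. Rtl1 lies between Meg3 and Rian on the minus strand. The mature sequences below show what each host carries, with the seed (bases 2 to 8, which pair with targets) in capitals. The seed of miR-453 and miR-496a-5p is the same, and the other mature sequences of the 3 hosts have a seed of their own among them.
mmu-miR-770-3p in Meg3, chr12:109563744-109563765: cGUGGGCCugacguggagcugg
mmu-miR-370-3p in Rian, chr12:109618305-109618326: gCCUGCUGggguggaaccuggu
mmu-miR-134-5p in Mirg, chr12:109734145-109734166: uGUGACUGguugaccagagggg
mmu-miR-453 in Mirg, chr12:109735669-109735692: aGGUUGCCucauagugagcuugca
mmu-miR-496a-5p in Mirg, chr12:109739132-109739152: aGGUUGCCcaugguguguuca
mmu-miR-410-3p in Mirg, chr12:109743764-109743784: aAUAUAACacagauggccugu

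Because the 3 genes were detected in the same nuclei, the RefSeq windows at their starts (250 bases before to 50 after, plus strand, GRCm38.p6) are shown, at chr12:109540746-109541045 for Meg3, chr12:109603695-109603994 for Rian and chr12:109734731-109735030 for Mirg. The motifs below were searched on both strands and matches are in capitals. TGACGTCA, the cAMP response element, is in the Meg3 window 57 bases before the start and in 1.79% of 32851 windows of the same length. CCAAT is in the Meg3 window at 100 bases and in the Mirg window at 184 bases before the start, and in 37.4% of all windows. TATAAA is in the Meg3 window on both strands, overlapping, at 29 and 25 bases before the start, and in 13.6% of all windows. CTTTGAT, the core letters bound by the TCF/LEF partners of beta-catenin, is in none of the 3 windows and in 3.73% of all. The Rian window holds none of the motifs. CG pairs numbered 13 in the Meg3 window, 0 in the Rian window and 10 in the Mirg window, against a median of 7 in all windows. RefSeq starts Mirg further downstream than GENCODE does, and a second RefSeq start of Meg3, whose window at chr12:109545148-109545447 holds none of the motifs, is not shown.
Meg3 window: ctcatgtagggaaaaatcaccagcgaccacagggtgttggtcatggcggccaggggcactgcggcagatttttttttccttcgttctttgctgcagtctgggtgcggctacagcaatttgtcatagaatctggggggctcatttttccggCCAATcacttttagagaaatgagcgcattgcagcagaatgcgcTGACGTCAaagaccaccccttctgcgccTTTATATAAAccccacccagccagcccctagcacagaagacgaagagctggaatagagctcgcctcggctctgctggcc
Rian window: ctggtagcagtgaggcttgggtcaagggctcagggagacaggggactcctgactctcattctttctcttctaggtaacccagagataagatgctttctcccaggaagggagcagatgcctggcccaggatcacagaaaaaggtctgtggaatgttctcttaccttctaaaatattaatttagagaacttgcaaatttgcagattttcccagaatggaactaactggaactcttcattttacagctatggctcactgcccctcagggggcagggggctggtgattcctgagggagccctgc
Mirg window: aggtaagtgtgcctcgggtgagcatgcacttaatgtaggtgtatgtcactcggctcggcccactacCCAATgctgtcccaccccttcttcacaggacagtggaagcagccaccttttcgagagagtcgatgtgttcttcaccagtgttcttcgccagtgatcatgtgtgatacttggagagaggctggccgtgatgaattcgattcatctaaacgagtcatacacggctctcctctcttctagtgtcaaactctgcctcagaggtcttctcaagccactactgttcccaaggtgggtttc

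The matrices of aged replicates 1 and 2 and young replicates 1 and 2 held 38457709, 54777101, 11799751 and 17809372 UMIs, and 7216, 11892, 1935 and 12219 nuclei were kept. Median UMIs per kept nucleus were 1865.5 and 2267 in the aged and 3180 and 918 in the young libraries, so depth differed within each age as well as between ages. Libraries shared 8 to 67 barcodes by pair, and the replicates of each age differed by far more than counting noise. Clusters were named from marker genes and carry the suffix "-like", and those with little match to any other class were named hepatocyte-like. Hepatocyte-like nuclei numbered 5521 and 8305 in the aged and 1381 and 8973 in the young libraries. Rim hepatocytes were hepatocyte-like nuclei with at least 1 UMI of Glul and at least 1 UMI over Slc1a2, Lgr5, Rhbg, Oat, Axin2 and Nkd1. These genes are a glutamate transporter, a receptor that enhances Wnt signals and 4 other genes of the vein's rim. Rim nuclei numbered 514 and 1073 in the aged and 336 and 1162 in the young libraries. The rim is a range and not a cell type: 179 and 305 of the aged and 75 and 493 of the young rim nuclei passed with 1 Glul UMI. Median UMIs per rim nucleus were 3216.5 and 4106 in the aged and 4708.5 and 1073 in the young libraries, and a deeper nucleus passes the gate more easily.

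Among hepatocytes, Meg3 was a gene of the rim in each library. In rim nuclei it stood at 108 and 285 counts per 1000000 UMIs (CPM) in aged replicates 1 and 2, and at 72.0 and 63.9 CPM in young replicates 1 and 2, from 232, 1676, 171 and 100 UMIs. In the other hepatocyte nuclei it stood at 6.51 and 8.73 CPM in the aged and 2.02 and 6.10 CPM in the young libraries. Every rim value lay above every value of the other hepatocytes. On the log2(CPM + 1) scale the difference of rim minus other hepatocytes was 3.86 and 4.88 in the aged and 4.60 and 3.19 in the young libraries, with a mean of 4.13 ± 0.76 (SD over 4 libraries). With the gate genes left out, that mean was the second highest of the 11984 genes with enough UMIs, below Kif26b (4.47), a kinesin family gene. The median gene differed by -0.02. Exact 95% Poisson intervals of the rim levels, which cover counting error only, ran from 94.9 to 123 and from 271 to 299 CPM in the aged libraries, and from 61.7 to 83.7 and from 52.0 to 77.7 CPM in the young libraries.

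Rian followed the same zone at a lower level. It stood at 43.5 and 96.4 CPM in aged and 25.7 and 14.1 CPM in young rim nuclei. The other hepatocyte nuclei had 2.01 and 3.63 CPM in the aged and 0.672 and 1.88 CPM in the young libraries. Its rim minus other difference of log2(CPM + 1) was 3.88 and 4.40 in the aged and 4.00 and 2.39 in the young libraries, with a mean of 3.67, the third highest of the same genes. Mirg was the scarcest, with 19 and 127 UMIs in aged and 8 and 2 UMIs in young rim nuclei. That gave 8.88 and 21.6 CPM in the aged and 3.37 and 1.28 CPM in the young rim, against 0.201 and 0.740 CPM in aged and 0.448 and 0.235 CPM in young other hepatocytes. Its mean difference was 2.30, from 183 UMIs in all hepatocyte nuclei, under the minimum of 200 set for the ranking. B830012L14Rik, the uncharacterised noncoding gene between Rian and Mirg, had a mean difference of 2.97, the 13th highest. The plot of rim minus other differences sets the 3 RNAs beside the median gene.

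**Figure D1:**
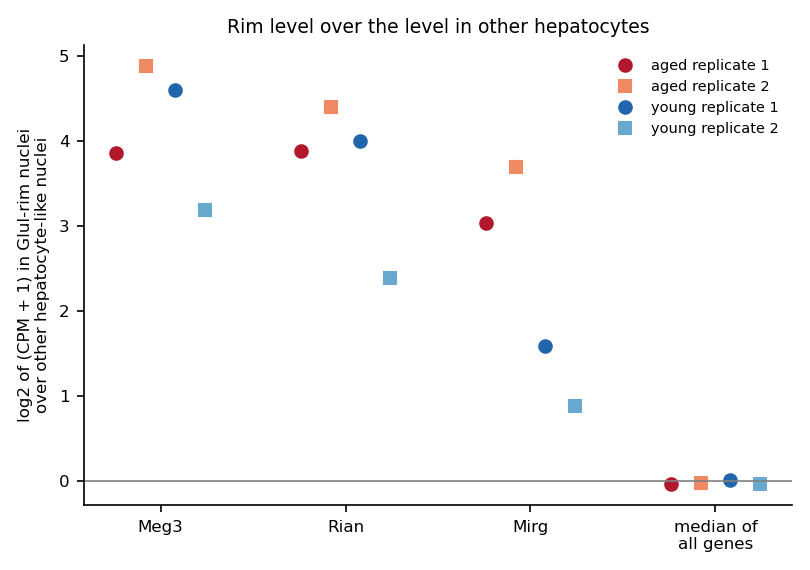
Difference of log2(CPM + 1) between Glul-rim and other hepatocyte-like nuclei (vertical axis) for Meg3, Rian, Mirg and the median of all genes, with 1 symbol per library. Meg3 and Rian lie between 2.39 and 4.88 in the 4 libraries and Mirg between 0.88 and 3.70, while the median gene lies near 0.

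Outside the rim, hepatocyte nuclei were ordered within each library by their level of pericentral genes less that of periportal genes and divided into a central, a middle and a portal range of equal size. In the central range Meg3 stood at 7.07 and 17.5 CPM in the aged and 2.42 and 9.79 CPM in the young libraries. In the middle range it stood at 11.1 and 5.07 CPM in the aged and 1.91 and 4.52 CPM in the young libraries. In the portal range it stood at 2.28 and 3.02 CPM in the aged and 1.61 and 3.57 CPM in the young libraries. The portal range had the lowest value in each library, and the middle range was above the central one in aged replicate 1. The counting intervals of the 3 ranges overlapped in young replicate 1, which had 4, 3 and 2 UMIs. Of the Meg3 UMIs of hepatocyte-like nuclei, rim nuclei held 70.5% and 87.7% in the aged and 95% and 65.8% in the young libraries. The same nuclei held 12.6% and 17.9% of all hepatocyte UMIs in the aged and 34.7% and 15.5% in the young libraries. For Neat1, a nuclear noncoding RNA of another locus, the rim's share was close to its share of all UMIs, at 11.9% and 15.0% in the aged and 33.5% and 13.96% in the young libraries.

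Most rim nuclei had no Meg3 count. The share with at least 1 UMI was 6.23% and 14.3% in aged and 10.7% and 3.10% in young rim nuclei. The other hepatocyte nuclei gave 1.18% and 1.80% in the aged and 0.861% and 0.461% in the young libraries. Macrophage-like nuclei, set beside them for comparison, gave 0 of 240 and 3.02% in the aged and 0 of 19 and 0.485% in the young libraries. Their median depths were 1161.5, 824, 1162 and 904.5 UMIs. Of these nuclei 30.4% and 64.2% in the aged and 73.7% and 92.0% in the young libraries were rich in hepatocyte RNA. They held at least 50% of the hepatocyte marker level of hepatocyte nuclei of the same library. The part of free RNA in the macrophage shares was not tested. With a floor of 3 counts, which is not an exact limit, 0 of 240 allows a share of up to 1.25%, and 0 of 19 one of up to 15.8%. The rim share stood above the macrophage share in aged replicates 1 and 2 and young replicate 2, while that of the other hepatocytes did not exceed the macrophage share or its limit in any library. The limits of aged replicate 1 and young replicate 1 rest on 0 counts in few nuclei, so these shares do not tell whether the other hepatocytes carried the RNA. After thinning each nucleus to 1000 UMIs, the rim share was 3.56% and 9.37% in the aged and 5.78% and 2.84% in the young libraries. Thinning left out 37 and 70 aged and 7 and 492 young rim nuclei that were shallower. For Rian the unthinned rim share was 4.86% and 8.39% in the aged and 5.06% and 1.46% in the young libraries. For Mirg it was 1.75% and 4.75% in the aged and 2.08% and 0.172% in the young libraries.

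The Meg3 molecules of the rim lay in few nuclei. Nuclei with at least 5 Meg3 UMIs numbered 12 and 79 in the aged and 13 and 4 in the young libraries, which is 2.33% and 7.36% of aged and 3.87% and 0.344% of young rim nuclei. They held 86.6% and 93.2% of the rim's Meg3 UMIs in the aged and 77.2% and 31.0% in the young libraries. The richest single nucleus held 66 and 95 UMIs in the aged and 22 and 9 in the young libraries. After thinning, the ratio of variance to mean (the Fano factor, 1 for counting noise alone) was 5.11 and 5.82 for Meg3 in the aged and 2.47 and 2.32 in the young libraries. Neat1, which the gate does not use, gave 1.25 and 1.92 in the aged and 1.12 and 1.37 in the young libraries, below Meg3 in each. Rian gave 2.45 and 3.55 in the aged libraries and 1.64 in young replicate 1. In young replicate 2, 8 thinned Rian UMIs lay in 7 of 670 rim nuclei, and its ratio is not given here. Among the other hepatocyte nuclei 4 and 8 aged and 0 and 1 young nuclei reached 5 Meg3 UMIs, none of them with a Glul count. The plot of ranked rim nuclei shows how quickly the count falls away.

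**Figure D2:**
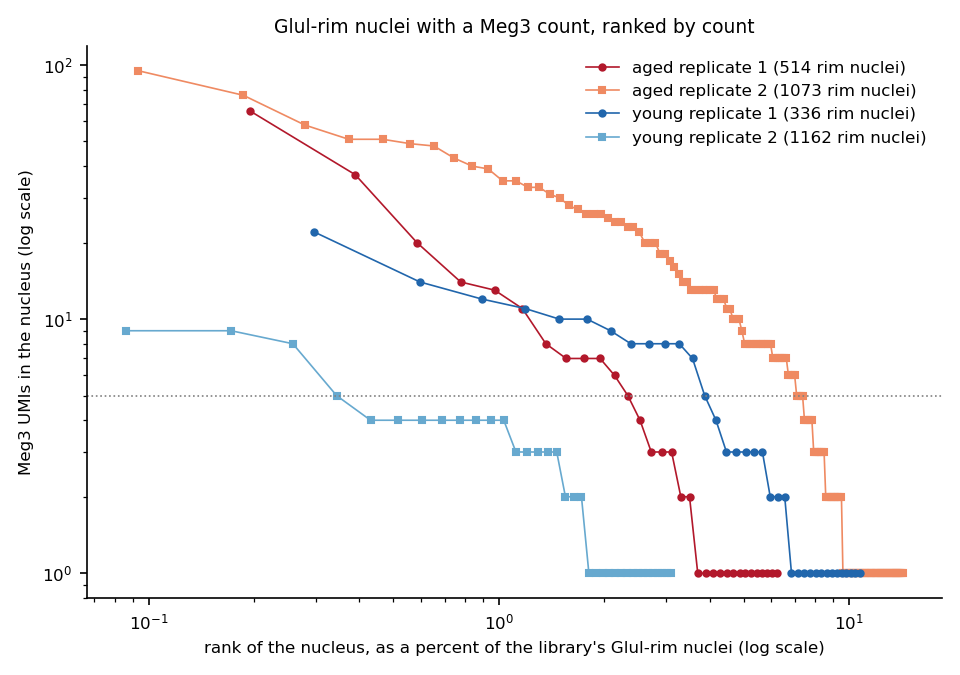
Meg3 UMIs in each Glul-rim nucleus with a count (vertical log axis) against its rank as a percent of the library's rim nuclei (horizontal log axis), with 1 line per library and a dotted line at 5 UMIs. The richest nucleus held 66 and 95 UMIs in the aged and 22 and 9 UMIs in the young libraries, and nuclei with no count are not drawn.

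Nuclei that carried Meg3 tended to carry Rian and Mirg as well. In the rim, Rian was counted in 46.9% and 55.6% of Meg3-positive nuclei of the aged libraries and in 38.9% and 33.3% of those of the young libraries. Among Meg3-negative rim nuclei the share was 2.07% and 0.54% in the aged and 1.00% and 0.44% in the young libraries. The 2 sets of shares did not overlap. After thinning to 1000 UMIs, Rian was in 47.1% and 48.9% of Meg3-positive nuclei in the aged and in 26.3% of them in both young libraries, against 1.09% and 0.66% of Meg3-negative nuclei in the aged and 0.65% and 0.31% in the young libraries. Mirg was in 25% and 32.7% of Meg3-positive nuclei in the aged and 16.7% and 5.56% in the young libraries, and in at most 0.33% of Meg3-negative nuclei in any of the 4. Thinned, that share was 23.5% and 23.4% in the aged and 0 in both young libraries, while Meg3-negative nuclei of young replicate 1 gave 0.645%, so the thinned young libraries do not show the split for Mirg. Among the other hepatocyte nuclei, Rian was in 6.78% and 14.6% of Meg3-positive nuclei in the aged and in 0 of 9 and 8.33% in the young libraries, against 0.465% and 0.451% of Meg3-negative nuclei in the aged and 0.29% and 0.129% in the young libraries. These shares lay above those of the Meg3-negative nuclei in aged replicates 1 and 2 and young replicate 2. In the rim, Neat1 was in 100% and 96.7% of Meg3-positive nuclei in the aged and 100% and 97.2% in the young libraries. Among Meg3-negative nuclei it was in 95.2% and 96.5% in the aged and 100% and 94.2% in the young libraries. At shares this high Neat1 could not show such a split, so it is no comparison for a scarce RNA. Nuclei of 1 library are not replicates, and these shares are descriptions.

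**Figure D3:**
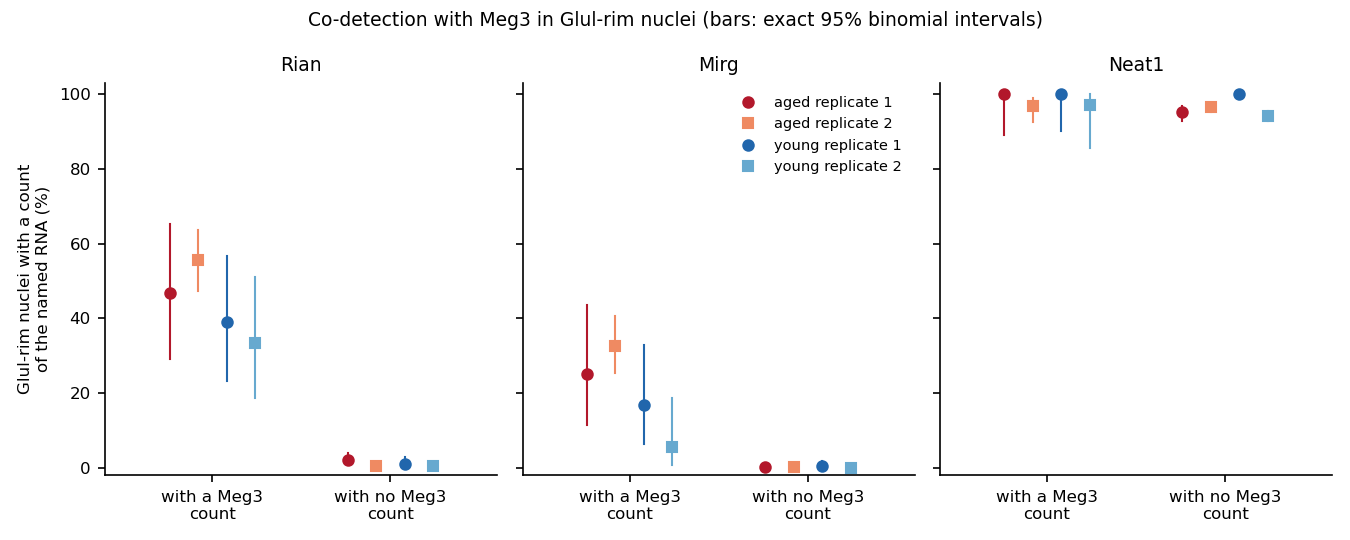
Percent of Glul-rim nuclei with a count of Rian, Mirg or Neat1 (vertical axis) among nuclei with and with no Meg3 count, with 1 symbol per library and exact 95% binomial intervals as bars. Rian was in 33.3% to 55.6% of Meg3-positive and at most 2.07% of Meg3-negative nuclei. Neat1 was in at least 94.2% of both, too many for such a split to show.

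Rim nuclei with at least 5 Meg3 UMIs were set against rim nuclei with none, as the log2 difference of CPM + 5, over the 13207 genes with at least 20 UMIs in the rim. The median gene differed by -0.43. After Meg3, which defines the split, the 4 highest mean differences all belonged to neighbours in the domain. Rian differed by 6.98 and 7.67 in the aged and 5.27 and 5.31 in the young libraries. B830012L14Rik differed by 6.84 and 6.38 in the aged and 4.16 and 5.71 in the young libraries. Mirg differed by 5.76 and 5.70 in the aged libraries and by 2.65 in young replicate 1, and had 0 UMIs in both sets of young replicate 2. Rtl1, which codes for a retrotransposon-derived protein on the other strand, differed by 4.92 and 4.24 in the aged libraries, from 8 and 41 UMIs in the Meg3-rich nuclei, and had 0 UMIs in young replicate 1. How strand was handled in the counting is not given in the sources used here, so reads of Rtl1 and of transcripts opposite to it cannot be told apart. The next gene, Sgcd, a sarcoglycan, differed by a mean of 1.89. Meg3, Rian, B830012L14Rik and Mirg were the only genes that differed by over 2 in aged replicates 1 and 2 and young replicate 1, the libraries with at least 12 Meg3-rich nuclei.

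**Figure D4:**
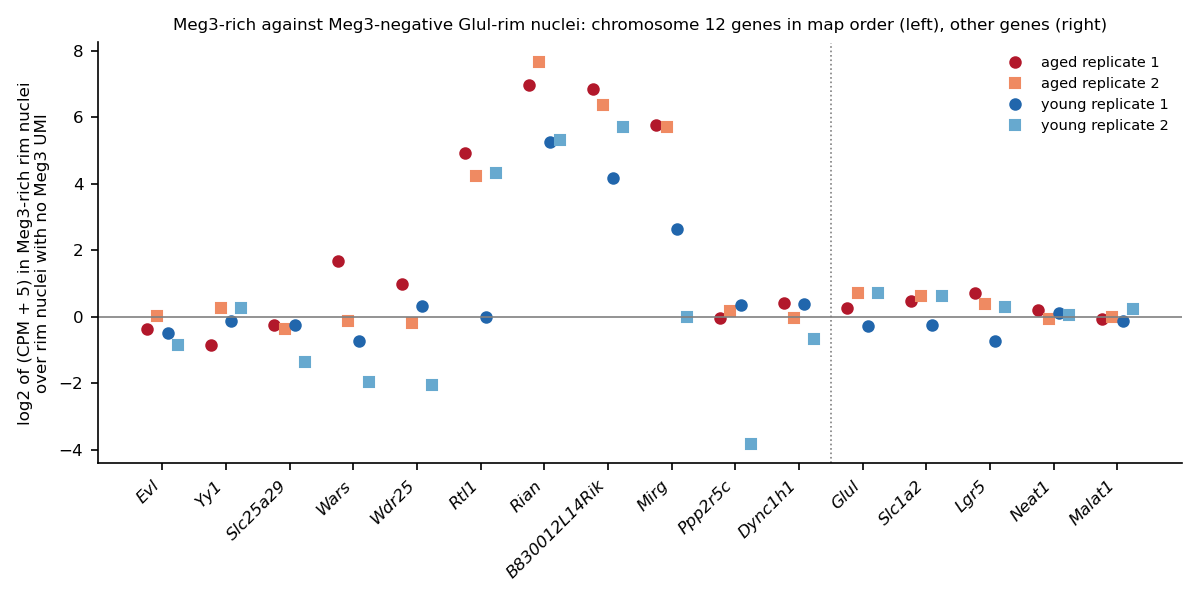
Log2 difference of CPM + 5 between Glul-rim nuclei with at least 5 Meg3 UMIs and those with none (vertical axis), for chromosome 12 genes in map order and, right of the dotted line, for 5 other genes, with 1 symbol per library. Rian, B830012L14Rik, Mirg and Rtl1 stand out in both aged libraries, the gate genes Glul, Slc1a2 and Lgr5 and the nuclear RNAs Neat1 and Malat1 lie closer to 0, and young replicate 2 rests on 4 Meg3-rich nuclei.

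Glul and Slc1a2, which chose the rim nuclei of both sets, were read as well. The gate removed nuclei with no count of Glul and made those with none of Slc1a2 fewer, which limits how far they can differ. Glul differed by 0.25 and 0.72 in the aged and by -0.27 and 0.71 in the young libraries. Slc1a2 differed by 0.47 and 0.61 in the aged and by -0.24 and 0.62 in the young libraries. In aged replicate 2, 73 of the 79 Meg3-rich nuclei lay in 1 of the library's rim clusters, cluster 22, whose rim nuclei stood at 1649 CPM of Glul, against 234 CPM in those of cluster 11. The Meg3-rich nuclei were deeper than those with none, with medians of 3786 and 4394 against 3175.5 and 4022.5 UMIs in the aged and 7423 and 2392.5 against 4589 and 1071.5 UMIs in the young libraries. The 4 mesothelial markers Msln, Upk3b, Wt1 and Lrrn4 summed to 0 UMIs in Meg3-rich nuclei of each library. The 10 hepatocyte markers summed to 10819 and 9948 CPM in the Meg3-rich nuclei of the aged and 17487 and 11618 CPM in those of the young libraries, against 13834 and 11694 CPM in aged and 16660 and 16135 CPM in young nuclei with none. The endothelial markers summed to 55.0 and 105 CPM in the Meg3-rich nuclei of the aged and 294 and 109 CPM in those of the young libraries. Rim nuclei with no Meg3 UMI had 75.8 and 82.7 CPM in the aged and 160 and 147 CPM in the young libraries. Endothelial-like nuclei had 2281 to 9501 CPM. The stellate markers summed to 73.3 and 214 CPM in the aged and 73.5 and 434 CPM in the young Meg3-rich nuclei, the last from 4 UMIs, where stellate-like nuclei had 2694 to 17891 CPM.

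Other genes of the domain and its flanks were read in the same nuclei. Dlk1, which codes for a transmembrane regulator of differentiation, and Dio3, which codes for a thyroid hormone deiodinase, had 0 UMIs in the rim of each library, which allows for each gene a level of up to 1.40 and 0.510 CPM in the aged and 1.26 and 1.92 CPM in the young rim. Between the 2 sets of rim nuclei, Yy1, which codes for a zinc finger transcription factor, Wdr25 and Dync1h1 did not reach a difference of 2 in aged replicates 1 and 2 and young replicate 1. Per 100 Meg3 UMIs the rim held 40.1 and 33.8 Rian UMIs in the aged and 35.7 and 22.0 in the young libraries. The other hepatocytes held 30.9 and 41.5 in the aged and 33.3 and 30.8 in the young libraries, so the ratio of the 2 RNAs overlapped between zones, whose levels did not overlap. Mirg stood at 8.19 and 7.58 per 100 Meg3 UMIs in the aged rim and at 4.68 and 2.00 in the young rim. These are ratios of 3′ counts and not of molecules per length.

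Outside hepatocytes, Meg3 was also counted in mesothelial-like nuclei, the cells of the liver's outer lining, and in stellate/fibroblast-like nuclei. Mesothelial-like nuclei, 6 and 127 in the aged and 35 and 85 in the young libraries, stood at 136 and 1007 CPM in the aged and 549 and 121 CPM in the young libraries, the first from 3 UMIs. Their share with a count was 33.3% and 27.6% in the aged and 34.3% and 10.6% in the young libraries. Stellate/fibroblast-like nuclei stood at 44.5 and 62.0 CPM in the aged and 39.9 and 42.5 CPM in the young libraries. Endothelial-like nuclei had 0 and 45.1 CPM in the aged and 10.3 and 10.2 CPM in the young libraries, and 84.4% of those of aged replicate 2 held at least 50% of the level of hepatocyte marker RNA seen in hepatocyte nuclei of the same library. The endothelial-like nuclei of that library below this level stood at 99.6 CPM, from 32 UMIs. In young replicate 2, 90.5% of endothelial-like nuclei were as rich in hepatocyte RNA. The part of free RNA in these values was not tested. In aged replicate 1, macrophage-like, T/NK-like, B-like and cholangiocyte-like nuclei all had 0 Meg3 UMIs, and in aged replicate 2 the same lineages had 41.0, 30.8, 20.6 and 5.57 CPM. In young replicate 1 these lineages held 5 Meg3 UMIs in all and in young replicate 2 they held 6, so no order among them can be read. In the order of levels, mesothelial-like nuclei came before rim hepatocytes and these before stellate/fibroblast-like nuclei in each library, while in young replicate 1 T/NK-like nuclei, at 76.1 CPM from 4 UMIs, lay between mesothelial-like and rim nuclei. That order holds for the classes as a whole, with nuclei rich in hepatocyte RNA included. Stellate/fibroblast-like nuclei below 50% of the hepatocyte marker level stood at 37.4 and 89.5 CPM of Meg3 in the aged libraries. In the young libraries they stood at 236 and 79.8 CPM, above the rim. Mesothelial-like nuclei below that level held 0 and 142 Meg3 UMIs in the aged and 20 and 1 in the young libraries. The part of hepatocyte RNA in the order was not tested. Cluster 18 of the stellate/fibroblast-like class, with 53 and 172 aged and 19 and 147 young nuclei, stood at 138 and 257 CPM of Meg3 in the aged and 419 and 70.7 CPM in the young libraries, from 9, 54, 8 and 8 UMIs. It lay above the rim in aged replicate 1 and young replicates 1 and 2 and below it in aged replicate 2, and its counting interval was apart from that of the rim in young replicate 1 alone. The counting intervals of mesothelial-like and rim nuclei overlapped in aged replicate 1 and young replicate 2 and were apart in aged replicate 2 and young replicate 1.

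**Figure D5:**
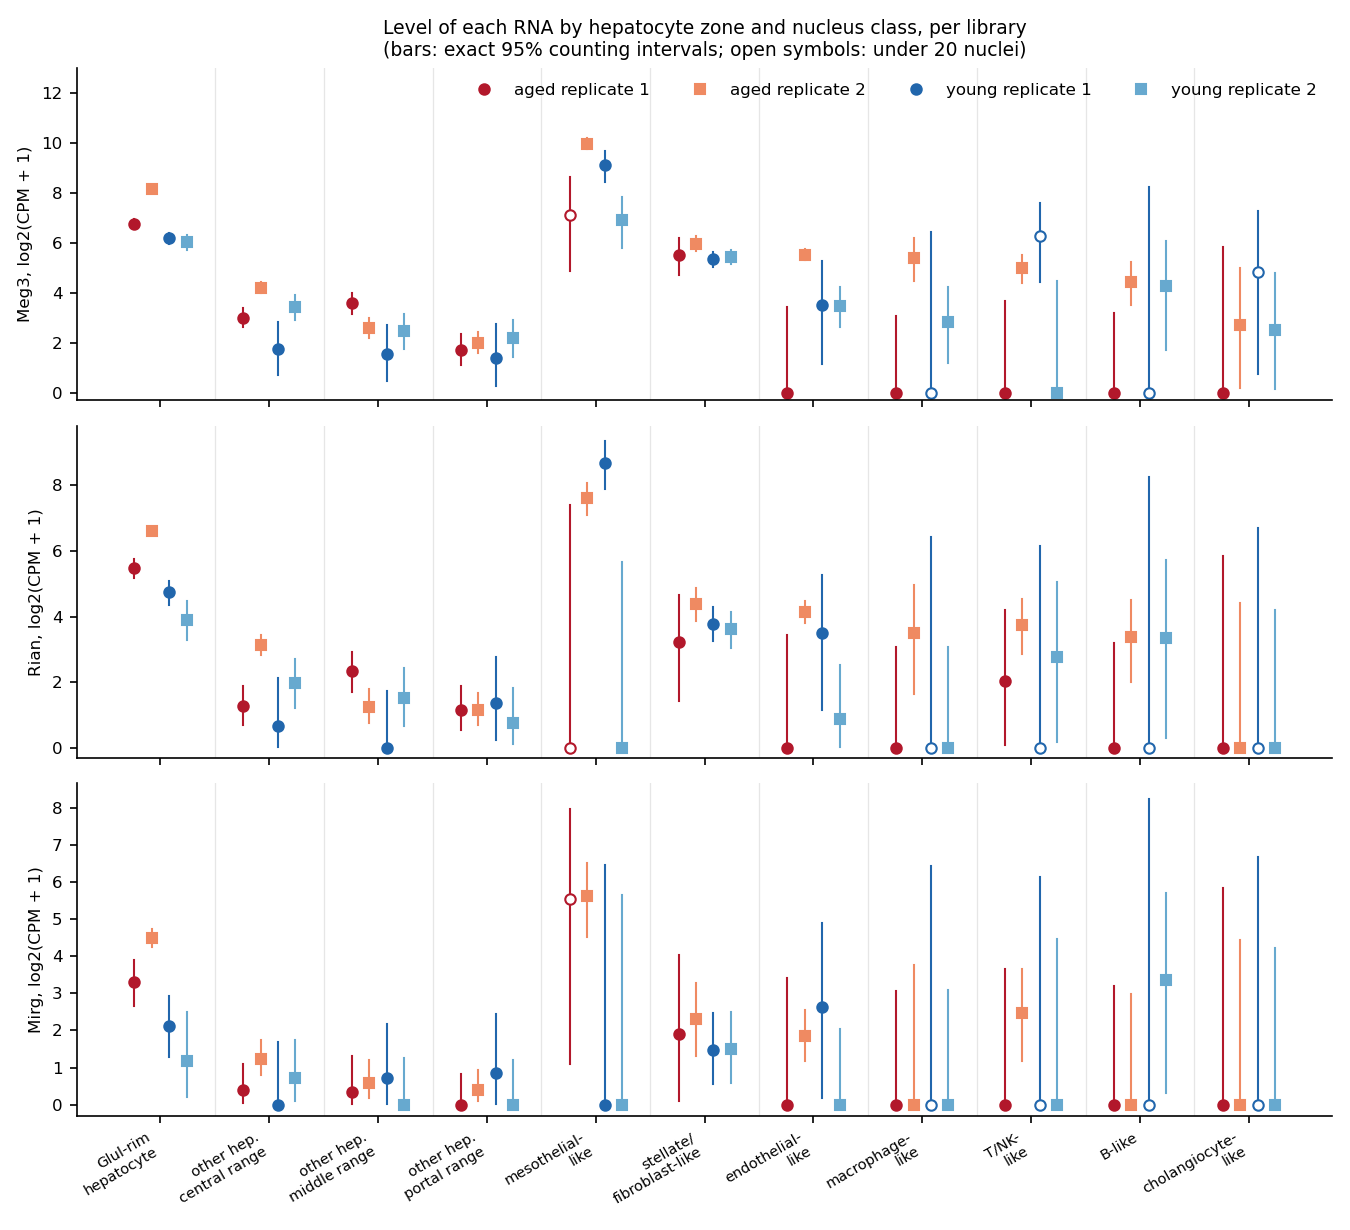
Level of Meg3, Rian and Mirg as log2(CPM + 1) (vertical axis) by hepatocyte zone and nucleus class, with 1 symbol per library, exact 95% Poisson counting intervals as bars and open symbols for fewer than 20 nuclei. Rim hepatocytes stand at 63.9 to 285 CPM of Meg3, above each range of the other hepatocytes, and symbols at 0 mark classes with no count.

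Rian was in mesothelial-like nuclei at 0 and 193 CPM in the aged and 406 and 0 CPM in the young libraries, and in stellate/fibroblast-like nuclei at 8.34 and 20.001 CPM in the aged and 12.8 and 11.3 CPM in the young libraries. In mesothelial-like nuclei of aged replicate 2, Rian was in 57.1% of Meg3-positive and 1.09% of Meg3-negative nuclei, but in young replicate 1 the shares were 33.3% and 30.4%. In stellate/fibroblast-like nuclei Rian was in 18.2% and 8.82% of Meg3-positive nuclei of the aged and 18.5% and 7.58% of those of the young libraries, against 0 and 0.91% of Meg3-negative nuclei in the aged and 1.70% and 1.28% in the young libraries. Across 39 sums of a lineage or zone in a library, which share depth and library, the gene with a pattern most like that of Meg3 was Rian (Pearson r of log2(CPM + 1) 0.82, of 13551 genes). B830012L14Rik followed at 0.82, then Syne2, which codes for a nuclear envelope protein, at 0.74, Efna5 at 0.72 and Bmpr1b at 0.71. Among the genes most like Rian were Meg3, B830012L14Rik (0.75), Mirg (0.70) and Tax1bp1 (0.64). Mirg was most like Gm34664 (0.70), Rian (0.70), Meg3 (0.66), A830008E24Rik (0.60) and Avpr1a (0.58), a vasopressin receptor gene. Glul correlated with Meg3 at 0.23 over the same sums.

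The age comparison was made on UMI counts summed per library. In rim nuclei both aged libraries stood above both young ones for Meg3, Rian and Mirg, and none of the 3 passed the test over all genes. With edgeR's quasi-likelihood test the log2 fold change of aged over young was 1.57 ± 0.46 (SE) for Meg3, with a p of 0.0117 and an adjusted p of 0.229. For Rian the edgeR value was 1.83 ± 0.50, with a p of 0.00842 and an adjusted p of 0.213. For Mirg the edgeR value was 2.67 ± 0.69, with a p of 0.00645 and an adjusted p of 0.206. In this comparison 0.0177% of 11285 genes were called, 2 genes, while 1796 had an unadjusted p under 0.05 and DESeq2 called 272. DESeq2 gave adjusted p-values of 0.068, 0.055 and 0.081 for Meg3, Rian and Mirg. Among all genes tested, 24.3% had both aged libraries above both young ones, and 5.12% had a p as small as that of Meg3. As the 3 RNAs were counted in largely the same nuclei, their changes are not 3 separate observations.

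In aged replicate 1, 2 of the 514 rim nuclei, with 66 and 37 UMIs, held 44.4% of the rim's Meg3 UMIs. In an alternative chosen after the data were seen, the 2 rim nuclei with the most Meg3 UMIs were left out of every library. Meg3 then stood at 60.8 and 257 CPM in the aged and 57.5 and 52.6 CPM in the young libraries, and 60.8 CPM is below the 72.0 CPM of the whole rim of young replicate 1. Rian stood at 24.5 and 77.1 CPM in the aged and 22.2 and 12.2 CPM in the young libraries. Both aged libraries then still lay above both young ones for each of these RNAs, with aged replicate 1 close to young replicate 1. For the whole rim 24.3% of genes had that order, and the share without the left-out nuclei is not given here.

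The size of the rim difference moved with aged replicate 2. Without it, the log2 fold change of Meg3 was 0.78, that of Rian 1.20 and that of Mirg 1.93. Without aged replicate 1, that of Meg3 was 2.08 and that of Rian 2.26. Without the filter on low counts, all 3 were called, at edgeR adjusted p-values of 0.00407 for Meg3, 0.000838 for Rian and 0.000593 for Mirg. That fit called 1001 genes, where the main fit called 2, and the number of genes it tested is not given here. Over all alternatives the adjusted p ran from 0.00407 to 0.507 for Meg3. Within aged replicate 2, the rim nuclei lay mainly in 2 clusters. Cluster 22, which held nuclei of this library only, had 719 rim nuclei at 462 CPM of Meg3 and 1649 CPM of Glul, and cluster 11 had 261 rim nuclei at 75.7 CPM of Meg3 and 234 CPM of Glul. The largest rim cluster of aged replicate 1 stood at 119 CPM of Meg3, and those of young replicates 1 and 2 at 72.6 and 68.0 CPM. When the gate was applied to nuclei thinned to 1000 UMIs, rim Meg3 stood at 101 and 497 CPM in the aged and 127 and 75.2 CPM in the young libraries, and the ages overlapped.

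The share of rim nuclei with a Meg3 count overlapped between ages, as given above, both as counted and thinned. Among the nuclei with a count, the mean was 7.25 and 11.0 Meg3 UMIs in the aged and 4.75 and 2.78 in the young libraries, so both aged libraries lay above both young ones. These means are as counted, at depths that differ between libraries. For summed rim counts 24.3% of genes had both aged libraries above both young ones, and the share for this measure is not given here. After thinning to 1000 UMIs they were 3.65 and 3.89 in the aged and 1.68 and 1.84 in the young libraries. As counted and without the 2 nuclei with the most Meg3 UMIs in each library, they were 4.30 and 9.97 in the aged and 3.97 and 2.41 in the young libraries. For Rian the mean was 3.72 and 6.30 UMIs in the aged and 3.59 and 1.29 in the young libraries. Without those 2 nuclei the Rian means were 2.26 and 5.14 in the aged and 3.47 and 1.27 in the young libraries, and the ages overlapped.

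In hepatocyte-like nuclei as a whole the ages overlapped. Meg3 stood at 19.3 and 58.1 CPM in the aged and 26.3 and 15.1 CPM in the young libraries, with an edgeR log2 fold change of 0.89 ± 0.56 (adjusted p 0.436). Rian stood at 7.22 and 20.2 CPM in the aged and 9.36 and 3.77 CPM in the young libraries, with a log2 fold change of 1.06 ± 0.65 (edgeR adjusted p 0.426). Mirg had a log2 fold change of 1.69 ± 0.91 (edgeR adjusted p 0.362). None of the 3 had an unadjusted p under 0.05. In this comparison 0.0392% of 15306 genes were called by edgeR, where 2839 had an unadjusted p under 0.05 and DESeq2 called 805. In the other hepatocyte nuclei Meg3 had an edgeR log2 fold change of 0.95 ± 0.56 (adjusted p 0.416) and Rian one of 1.15 ± 0.68 (adjusted p 0.420), both with the aged libraries above the young ones, as 25.6% of genes were. Here 0.04% of 15001 genes were called by edgeR, 2681 had an unadjusted p under 0.05 and DESeq2 called 671. Mirg did not pass the count filter there. The difference between the rim's and the other hepatocytes' age effects was 0.80 ± 0.43 for Meg3 (edgeR adjusted p 0.802), 0.96 ± 0.51 for Rian (0.803) and 2.32 ± 1.00 for Mirg (0.748), and 0.322% of 13986 genes passed that test. Without young replicate 2 the difference turned to -0.39 for Meg3 (edgeR adjusted p 0.933) and -0.50 for Rian (0.931), and with the gate applied to thinned nuclei that of Mirg was -0.016. An unadjusted p under 0.05 was found for 920 genes there, Mirg among them (p of 0.0389 by edgeR), and DESeq2 called 33.

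In stellate/fibroblast-like nuclei edgeR called 10.3% of 12232 genes, and neither Meg3 nor Rian was among them. There 3771 genes had an unadjusted p under 0.05, neither of the 2 RNAs included, and DESeq2 called 1468. Meg3 had an edgeR log2 fold change of 0.47 ± 0.33 (adjusted p 0.383), with both aged libraries above both young ones, as 31.8% of genes were. Rian had 0.44 ± 0.52 (edgeR adjusted p 0.612) and its ages overlapped. Different clusters held most of this class in the 2 ages. Cluster 16 held 264 and 986 of its nuclei in the aged and 148 and 63 in the young libraries, and cluster 17 held 3 and 88 in the aged and 212 and 1264 in the young libraries. Meg3 stood at 24.0 and 34.5 CPM in the aged and 25.7 and 0 CPM in the young libraries in cluster 16, so the values of the whole class compare partly different clusters. Hepatocyte marker RNA made up 0.671% and 0.858% of UMIs of these nuclei in the aged and 1.885% and 1.496% in the young libraries, and its part in these values was not tested. Without nuclei at 50% or more of the hepatocyte level of such RNA, the log2 fold change was -1.08 for Meg3 and -1.09 for Rian, and 1 gene was called. In endothelial-like nuclei none of the 3 RNAs passed the count filter, and edgeR called 0 of 9392 genes, where 441 had an unadjusted p under 0.05 and DESeq2 called 8.

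Lists of related genes were read in the rim beside the 3 RNAs, and no member of any was called by edgeR. Of 17 genes of the domain and its flanks, 9 were tested, 6 with a higher and 3 with a lower value in the aged rim. Their median log2 fold change was 0.66, against -0.01 over all genes. Meg3, Rian and Mirg are themselves 3 of these 9 genes and 3 of the 6 higher ones. The median is therefore drawn partly from them and is no separate observation. B830012L14Rik stood at 2.01 ± 0.63 (edgeR adjusted p 0.241). The flanking genes Yy1 (-0.13), Ppp2r5c (0.20), Wars (-0.36), Dync1h1 (-0.44) and Wdr25 (0.66) lay closer to 0. Of 36 other imprinted genes 17 were tested, 9 with a higher and 8 with a lower value, with a median of 0.12. The smallest p belonged to Igf2r, which codes for the receptor that clears insulin-like growth factor 2, at 1.38 ± 0.44 (edgeR adjusted p 0.243). Of 21 Wnt and beta-catenin target genes 19 were tested, 9 with a higher and 10 with a lower value, with a median of -0.04. Notum, an enzyme that inactivates Wnt ligands, stood at -0.97 ± 0.30 (edgeR adjusted p 0.241). Of 12 other nuclear noncoding RNAs 10 were tested, 8 with a higher and 2 with a lower value, with a median of 0.46. Snhg11, a small nucleolar RNA host, stood at 1.24 ± 0.31 (edgeR adjusted p 0.205). Of 9 genes that maintain imprints 7 were tested, 4 with a higher and 3 with a lower value, with a median of 0.07. Among them Trim28, the corepressor that holds imprinted methylation, stood at 0.78 ± 0.32 (edgeR adjusted p 0.302).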

How the data were processed

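Nuclear RNA of livers was measured in 2 aged and 2 young libraries. The authors deposited UMI counts (one number for each gene in each barcode), and the submitters' processing notes name Cell Ranger 7.1.0 and mm10. The sources used here do not give the annotation release or the intron and strand settings. Every barcode of a 10x matrix is a droplet that may also hold free RNA.

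Members, gene lists, markers and tests were chosen with earlier results of these data known. Barcodes were kept with at least 500 UMIs, 300 genes and at most 5% mitochondrial UMIs. Scrublet (scanpy 1.11.5) marked 2 barcodes by its own threshold, so the highest scores were removed at 0.8% per 1000 barcodes (3927 nuclei). The 3 RNAs were left out of the 2000 variable genes, 30 components and 20 neighbours that entered Leiden clustering (igraph 0.11.9, resolution 1). Classes other than hepatocyte-like needed at least 3 markers, and the fold that a marker had to reach was set after the data were seen. Clusters whose best match among those classes had a mean log2 fold under 1 were named hepatocyte-like. They needed a count of at least 3 of the 10 hepatocyte markers and no fold, so this class is what the others left. Names may differ from the study's own. The genes named are the 3 RNAs, the 5 most like each, and those of smallest p in each list, except 1 that is not reported here.

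Counts were summed per library and class with at least 20 nuclei in each library, filtered with filterByExpr, scaled by TMM and tested with edgeR 4.0.16 (R 4.3.3), adjusted by Benjamini-Hochberg at 0.05 over all genes. The script was tested on simulated data. DESeq2 1.42.0, other filters, gates and left-out libraries were alternatives. CPM are per 1000000 UMIs without TMM scaling. Intervals are exact at 95% and cover counting error only. For a count of 0, the limit printed in the text is a floor of 3 counts and not an exact one. Libraries of the same replicate number did not deviate together (r from -0.283 to 0.0173 by class), and the main tests do not pair them. A negative r means that unlike numbers deviated together. With 2 libraries an age, r cannot tell whether libraries shared processing.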

Additional observations from a re-analysis of the deposited data

Results flagged for a closer look

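Barcodes removed as doublets, which entered the tests only in an alternative that kept doublets, also held the 3 RNAs, at a higher mean level in the aged libraries. Meg3 averaged 43.3 CPM there in the aged libraries (23.3 and 63.3) and 20.8 CPM in the young libraries (19.7 and 21.9). Rian averaged 17.4 CPM in the aged (11.1 and 23.8) and 5.88 CPM in the young libraries (7.89 and 3.86). Mirg averaged 3.32 CPM in the aged (2.87 and 3.77) and 0.215 CPM in the young libraries (0 and 0.429). Barcodes removed as doublets can hold several nuclei, and no test was made on them. They were flagged because both aged libraries lay above both young ones, so that order was set by the rule. In barcodes removed for their mitochondrial share, Meg3 averaged 28.3 CPM in the aged and 36.3 CPM in the young libraries. There Rian averaged 11.5 CPM in the aged and 10.2 CPM in the young, and Mirg 1.34 and 2.96 CPM.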

How the results depend on the processing

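Of 173 alternative values of the 3 RNAs in the age and interaction tests, 160 kept their direction and their side of the threshold, 6 came to pass it and 7 turned round. With 1 library left out, Meg3 ran from -0.040 to 1.53 in hepatocyte-like nuclei, Rian from -0.53 to 0.78 in stellate/fibroblast-like nuclei, and the interaction of Meg3 from -0.39 to 1.32 and of Rian from -0.50 to 1.77. In the rim these fits gave 0.78 to 2.08 for Meg3, 1.20 to 2.45 for Rian and 1.93 to 3.70 for Mirg, and they assume that the lone library of an age varies like the others. In each of the first 4 ranges the lowest value came without 1 library, aged replicate 2 for the first pair and young replicate 2 for the interactions. Without stellate/fibroblast-like nuclei rich in hepatocyte RNA, Meg3 was at -1.08 and Rian at -1.09. The interaction of Mirg was -0.016 with the thinned gate.

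Numbers of genes called moved far more. In hepatocyte-like nuclei 6 genes became 805 with DESeq2, 1521 without a count filter, 2 at no more than 1% mitochondrial UMIs and 218 to 1221 with 1 library left out. In the rim 2 became 272 with DESeq2, 1001 without a filter, 1 with the thinned gate or a gate of 2 Glul UMIs, and 1 to 288 with 1 library left out. In the rim without a filter the log2 fold changes were 1.62, 1.87 and 2.71 for Meg3, Rian and Mirg. In other hepatocytes 6 became 671, 1368, 1 (with at least 1000 UMIs, and with at most 1% mitochondrial UMIs) and 193 to 919. In stellate/fibroblast-like nuclei 1263 became 2923 without a filter, 1 without nuclei rich in hepatocyte RNA, and 0 to 1921. In endothelial-like nuclei 0 became 8 with DESeq2, 80 without a filter, 2 at the mitochondrial limit and 0 to 353. For the interaction 45 became 182 without a filter, 71 at the mitochondrial limit, 25 with doublets kept, 124 with a gate of 2 Glul UMIs, 107 with the thinned gate and 18 to 141. The causes were not tested. Thinned to 1000 UMIs, the mean share of Meg3-positive rim nuclei with Rian was 37.2% in place of 43.7%, and with Mirg 11.7% in place of 19.98%.

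The replicate block, which treats equal numbers as pairs, gave 11, 7, 11, 0, 1 and 199 calls in the order above, and rim Meg3 at 1.44 (adjusted p 0.329). A crossed pairing, added after the data were seen, gave 100, 143, 236, 3444, 0 and 73 calls, with rim Rian called at 1.83. With 2 libraries an age, and 8 and 2 Mirg UMIs in the young rim, depth limits what can be told of Mirg.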
